A study of Homo sapiens with 3 samples.

Results

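The enzymes that build and break down glycogen were read in MCF10A cells, a human breast epithelial line that is immortalized but not tumorigenic. The genes are GYG1, PGM1, UGP2, GYS1, GYS2, GBE1, PYGB, PYGL and PYGM, taken by name as the core steps of the pathway with the tissue isoforms of synthase and phosphorylase, and found by Ensembl identifier through GENCODE release 44. They are 9 of the 62754 genes measured. The cells carried the Retro-X Tet-One retroviral vector with no gene inserted, had been selected with puromycin, and received neither doxycycline nor any other treatment. They were grown in DMEM/F12 with mammary epithelial growth supplements and cholera toxin, and RNA was taken 27 h after the cells were seeded, in exponential growth. The 3 replicates belong to 1 condition, so no group can be set against another, and the comparisons are between genes within a library. Sample titles and library names give no batch, so whether the replicates were processed together is not known. Nothing states that the replicates were separate cultures or whether the selected cells came from 1 clone, so the spread between these samples may be technical. No p-value given here speaks for other cultures of these cells.

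Glycogen is a branched polymer of glucose that cells keep as a store of carbon and energy. Glucose 6-phosphate is turned into glucose 1-phosphate and then into UDP-glucose, glycogenin lays down a short primer, glycogen synthase extends it and the branching enzyme adds side chains. Glycogen phosphorylase releases glucose 1-phosphate from chain ends. Synthase has a muscle form of broad distribution (GYS1) and a liver form (GYS2), and phosphorylase has forms named after brain (PYGB), liver (PYGL) and muscle (PYGM). Muscle cells use their store for contraction, while liver exports glucose into the blood.

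By the mean of the replicates and in each of them, 7 of the 9 genes reached at least 1 TPM, and 2, the liver synthase GYS2 and the muscle phosphorylase PYGM, were below it in all replicates. TPM, a unit of relative transcript abundance, divides the reads of a gene by its length and scales each library to the same total. That level was reached by the mean in 24.9% of all genes measured, and in 56.7% of the 20046 protein-coding genes. The brain and liver phosphorylases were the highest of the 9 genes, and glycogenin was the lowest of the 7 that were measured above 1 TPM.

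The phosphorylase isoforms are paralogs, so their sequences bear on whether reads can be told apart. The coding sequence of PYGB was 76.4% identical to that of PYGL and 79.0% identical to that of PYGM over the aligned bases, and PYGL was 74.97% identical to PYGM. The longest identical runs were 33, 29 and 35 bases in the same order, and no stretch of 50 bases was shared by any of these pairs. The run of PYGB and PYGL, the isoforms with the highest levels, lies in the stretch of coding bases 142 to 231 shown here, which is in exon 1 of both genes and is written 5′ to 3′ on the coding strand, with capitals for bases that differ from PYGB. It comes from the GENCODE release 44 transcripts on hg38, at chr20:25248320-25248409 on the plus strand for PYGB and chr14:50944173-50944262 on the minus strand for PYGL.
PYGB: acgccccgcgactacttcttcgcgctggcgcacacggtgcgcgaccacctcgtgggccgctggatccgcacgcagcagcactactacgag
PYGL: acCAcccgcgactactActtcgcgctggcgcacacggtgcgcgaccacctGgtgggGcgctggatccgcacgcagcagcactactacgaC
Over these 90 bases PYGL differed from PYGB at 6 positions. The other isoform pairs were further apart: identity was 69.2% between GYS1 and GYS2, 69.6% between GYG1 and GYG2, 70.4% between PHKA1 and PHKA2 and 70.3% between PHKG1 and PHKG2, and again no stretch of 50 bases was shared.

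Replicates 1, 2 and 3 held 15273329, 15446347 and 11166546 reads on annotated genes, with the smallest step of the values taken as 1 read. Replicate 3 differed from the others in composition: its 10 highest genes took 23.8% of all TPM, against 12.7% and 13.1% in replicates 1 and 2. Most of this difference lay in 1 gene, RN7SL1, at 150632 TPM in replicate 3 against 49293 and 56610 TPM in replicates 1 and 2. Across the 8364 protein-coding genes at or above 10 TPM replicate 3 had a median log2 ratio of -0.25 to replicate 1 and -0.23 to replicate 2. The values of each enzyme are to be read against this shift. Ratios of 2 genes in the same library are free of a scale shared by all genes, but not of differences of replicate 3 that vary by gene. The list for basal breast epithelium held KRT5, KRT14, TP63, CDH1, EPCAM and EGFR, and whether each is particular to basal cells was not tested. All 6 were at or above 1 TPM, with means from 14.6 TPM for EPCAM to 6612 TPM for KRT5. KRT14 had a mean of 4144 TPM and TP63 one of 49.8 TPM. That level was also reached by 56.7% of protein-coding genes and by 2 of 4 luminal markers.

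GYG1 (ENSG00000163754, chromosome 3, 148991408 to 149031775, plus strand) encodes glycogenin, which adds glucose to itself to start a new particle. It was measured at 19.8, 19.7 and 16.3 TPM in replicates 1, 2 and 3, a mean of 18.6 ± 2.01 (SD, n = 3), from 625, 639 and 437 reads. This was under the median of the 11360 protein-coding genes at or above 1 TPM, which was 24.9 TPM, and placed GYG1 at percentile 41.2 of them. The exons of its canonical transcript overlap HLTF on the opposite strand over 27.5% of their bases, and whether strand was used in counting is not given in the sources used here. GYG2, the glycogenin of liver, had 0 reads in every replicate. With the limit of 3 reads that a count of 0 allows in each library, GYG1 was at least 118-fold, 120-fold and 82.2-fold higher than GYG2 in replicates 1, 2 and 3.

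PGM1 (ENSG00000079739, chromosome 1, 63593411 to 63660245, plus strand) encodes phosphoglucomutase 1, which interconverts glucose 6-phosphate and glucose 1-phosphate and so stands at the entry to synthesis and the exit from breakdown. Its values were 115, 116 and 88.9 TPM, with a mean of 106 ± 15.1 (SD, n = 3). UGP2 (ENSG00000169764, chromosome 2, 63840952 to 63891562, plus strand) encodes the pyrophosphorylase that makes UDP-glucose. It was measured at 113, 101 and 98.8 TPM, with a mean of 104 ± 7.71 (SD, n = 3). Both lay near percentile 87 of the genes at or above 1 TPM, PGM1 at 87.1 and UGP2 at 86.9. PGM1 was above UGP2 in 2 of 3 replicates and below it in replicate 3, so their order was not set apart. The level of UGP2 depends on its length, since the values imply its longest transcript of 4397 bases, whereas the Ensembl canonical transcript has 2150. With canonical lengths for all genes UGP2 came to 175 ± 11.6 TPM and PGM1 to 98.5 TPM, and UGP2 then stood above PGM1, with a log2 ratio of PGM1 to UGP2 of -0.83. Without replicate 2 their means were 102 TPM for PGM1 and 106 TPM for UGP2.

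The genes beside this step had lower levels. PGM2, a mutase that acts mainly on pentose phosphates, was measured at 77.2, 70.7 and 58.2 TPM, and PGM1 exceeded it 1.49-fold, 1.64-fold and 1.53-fold in the 3 replicates. PGM2L1, which makes glucose 1,6-bisphosphate, the cofactor of the mutases, was at 3.34, 3.66 and 2.79 TPM, and PGM5 had 0 reads. UDP-glucose also feeds other routes. All 5 genes listed for its other uses and sources were at or above 1 TPM by the mean, GALT only narrowly at 1.20 TPM. That level was reached by 56.7% of protein-coding genes. UGDH, which oxidizes UDP-glucose to UDP-glucuronate, was at 60.3, 54.8 and 52.0 TPM, and UGP2 exceeded it by 1.88, 1.85 and 1.90 times. With canonical lengths this ratio was larger, with means of 175 TPM for UGP2 and 45.4 TPM for UGDH. UGGT1, the folding sensor that puts glucose on glycoproteins, had a mean of 59.5 TPM, and UGCG, the glucosylceramide synthase, one of 20.6. GALT, the uridylyltransferase of galactose breakdown, was at 1.33, 0.866 and 1.39 TPM, on both sides of 1 TPM, and 97.2% of its exonic bases lie in a second gene of the same strand, which was measured at 0.511, 0.456 and 0.2502 TPM.

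GYS1 (ENSG00000104812, chromosome 19, 48968130 to 48993310, minus strand), the muscle-type synthase that adds glucose from UDP-glucose to the chain, was measured at 89.4, 89.9 and 64.5 TPM. Its mean was 81.2 ± 14.5 (SD, n = 3), at percentile 82.4. GYS1 had the widest spread of the 7 genes above 1 TPM, with a coefficient of variation of 17.9%, and the low value was in replicate 3.

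GYS2 (ENSG00000111713, chromosome 12, 21536107 to 21604847, minus strand), the liver synthase, had 1, 0 and 0 reads. These give 0.0593 TPM in replicate 1 and are listed at 0 in the others, and 3 reads would have given between 0.173 and 0.209 TPM. With the limit of 3 reads GYS1 was at least 519-fold and 308-fold higher in replicates 2 and 3, where GYS2 had 0 reads. The 1 read of GYS2 over all 3 libraries gives a ratio whose 95% counting interval ran from 715-fold to 157564-fold. However, 85.3% of the exonic bases of GYS2 are shared on the same strand with another annotated gene, ENSG00000285854, which runs through it from 21536203 to 21657798 and was listed at 0 in all replicates. Reads on shared exons may have been given to neither gene, so the low value leaves the expression of GYS2 unread, and the ratios describe the deposited values only.

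GBE1 (ENSG00000114480, chromosome 3, 81489703 to 81761645, minus strand) encodes the branching enzyme, which moves short chains to new branch points. It was measured at 82.6, 73.7 and 69.3 TPM, with a mean of 75.2 ± 6.80 (SD, n = 3). Synthase and branching enzyme transcripts were at like levels: the ratio of GYS1 to GBE1 was 1.08, 1.22 and 0.930, and the order changed in replicate 3. Relative to the primer, GYS1 was 4.51, 4.56 and 3.96 times the level of GYG1.

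PYGB (ENSG00000100994, chromosome 20, 25248085 to 25298012, plus strand), the brain phosphorylase, was the highest of the 9 genes. It was measured at 511, 511 and 402 TPM from 11039, 11350 and 7377 reads, with a mean of 475 ± 63.4 (SD, n = 3), at percentile 97.9 of the protein-coding genes at or above 1 TPM. PYGL (ENSG00000100504, chromosome 14, 50857891 to 50944483, minus strand), the liver phosphorylase, was measured at 304, 285 and 239 TPM, with a mean of 276 ± 33.5 (SD, n = 3), at percentile 95.8. The 2 genes did not overlap: the lowest value of PYGB was above the highest of PYGL.

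PYGM (ENSG00000068976, chromosome 11, 64746389 to 64759974, minus strand), the muscle phosphorylase, was at 0.267, 0.454 and 0.235 TPM, from 4, 7 and 3 reads. Its 95% counting intervals ran from 0.0727 to 0.683, from 0.183 to 0.935 and from 0.0485 to 0.687 TPM, so each was below 1 TPM. These are bulk libraries, in which few cells with a transcript and few transcripts per cell cannot be told apart. No exonic base of PYGM overlaps a second annotated gene, on either strand.

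**Figure D1:**
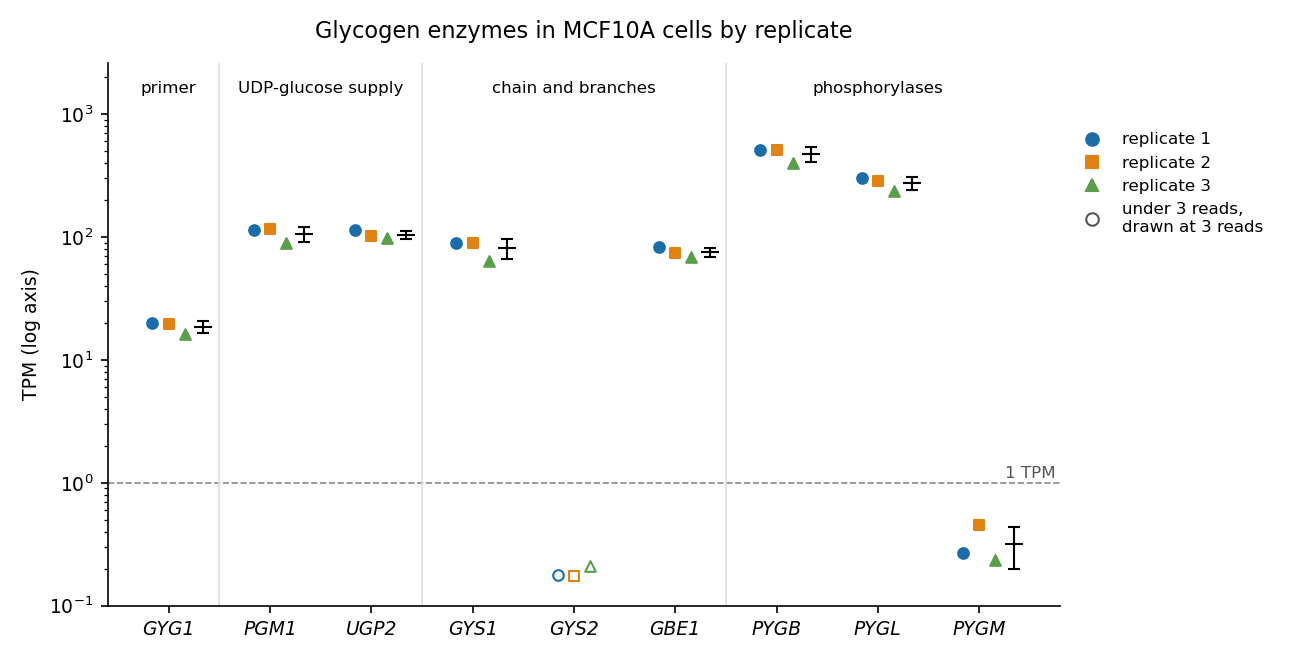
Level of each of the 9 enzymes in TPM on a log axis, by step of the pathway. Filled symbols are the 3 replicates, black bars the mean ± SD (n = 3), and open symbols mark libraries with under 3 reads, drawn at the level of 3 reads. PYGB and PYGL sit highest, between 239 and 511 TPM, and PYGM and GYS2 lie below the dashed line at 1 TPM.

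The comparison of phosphorylase isoforms within libraries gave near-constant proportions. PYGB exceeded PYGL 1.68-fold, 1.79-fold and 1.68-fold in replicates 1, 2 and 3, a mean log2 ratio of PYGL to PYGB of -0.78 ± 0.05 (SD, n = 3). The direction was the same in 3 of 3 replicates. An exact two-sided sign-flip permutation test over the replicates gave p = 0.25, the smallest that 3 replicates allow, so this design cannot reach 0.05. Of the summed phosphorylase TPM, PYGB made up 62.7%, 64.1% and 62.7%, PYGL 36.8% ± 0.855 (SD, n = 3), and PYGM 0.0421% ± 0.0130 (SD, n = 3). The sum itself was 816, 797 and 641 TPM, so the total was lowest in replicate 3 while the shares differed by less than 2 percentage points. PYGM stood at -10.59 ± 0.40 on the log2 scale to PYGB and at -9.81 ± 0.46 to PYGL (SD, n = 3). With the reads of the 3 libraries added, PYGB exceeded PYGM 1477-fold, with a 95% counting interval from 880-fold to 2702-fold, and PYGL exceeded it 858-fold, with an interval from 511-fold to 1569-fold. These intervals cover counting error only.

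**Figure D2:**
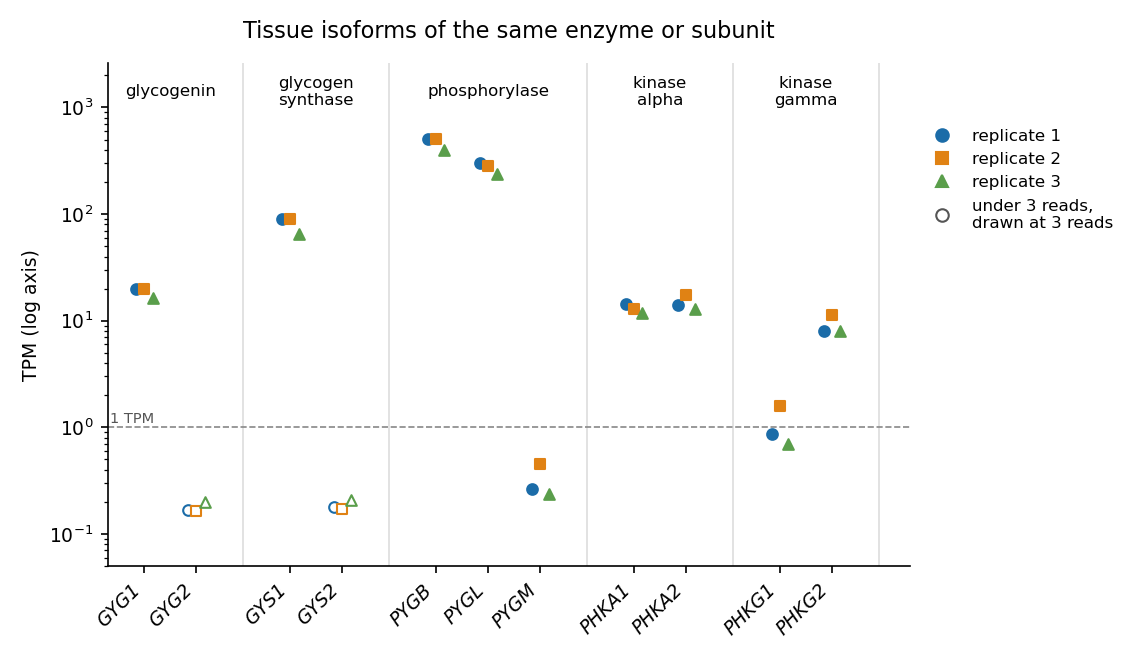
Levels of tissue isoforms in TPM on a log axis, for glycogenin, synthase, phosphorylase and the alpha and gamma subunits of phosphorylase kinase. Symbols are the 3 replicates and open symbols are libraries with under 3 reads, drawn at the level of 3 reads. PYGB and PYGL are both high and PYGM is not, while PHKA1 and PHKA2 overlap.

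The enzymes were ordered by mean TPM as PYGB, PYGL, PGM1, UGP2, GYS1, GBE1, GYG1, PYGM and GYS2. Neighbours were set apart where all 3 replicates had the same order and the mean log2 ratio was above its SD. PGM1 and UGP2, and GYS1 and GBE1, were not set apart. PYGM and GYS2 met the rule with GYS2 set to 3 reads in each library. PYGM itself had 3 reads in replicate 3 and GYS2 was left unread, so no order of these 2 genes is claimed. PYGL exceeded PGM1 by 1.38 ± 0.07 on the log2 scale, UGP2 exceeded GYS1 by 0.38 ± 0.22, or by 1.41 with canonical lengths, and GBE1 exceeded GYG1 by 2.02 ± 0.10 (SD, n = 3). Transcripts of the phosphorolytic step were above those of the synthetic step, with a ratio of PYGB and PYGL together to GYS1 of 9.12, 8.87 and 9.94. Among protein-coding genes at or above 1 TPM the lower and upper quartiles were 9.29 and 58.0 TPM. Of the 7 enzymes above 1 TPM, 6 lay above the upper quartile, as 25% of those protein-coding genes do by definition. GYS2 and PYGM, which were below 1 TPM, are outside this count.

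**Figure D3:**
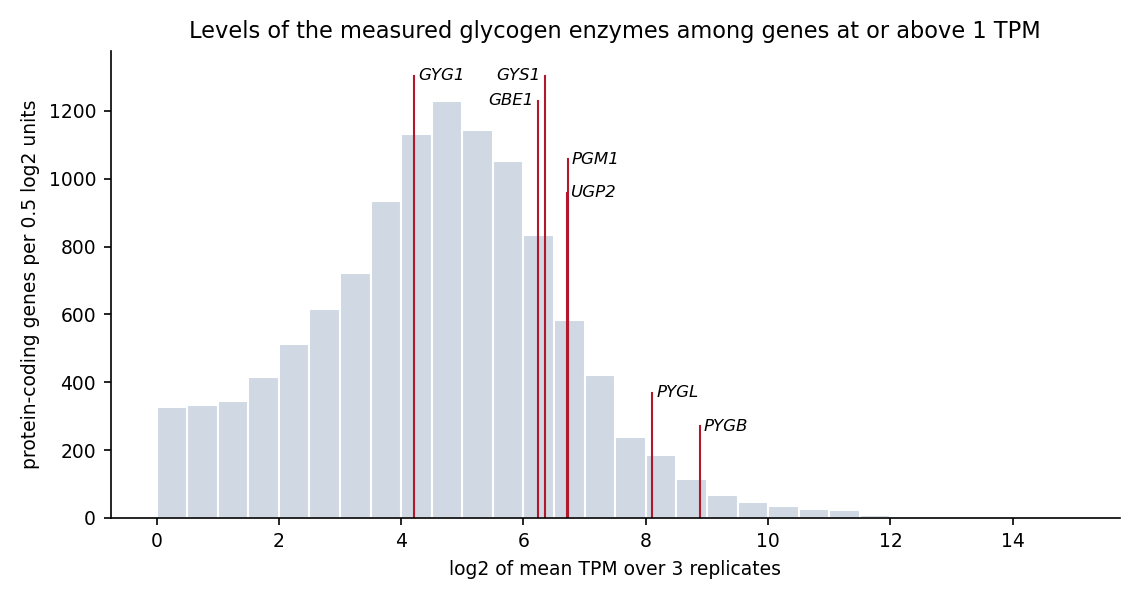
Number of protein-coding genes per 0.5 units of log2 mean TPM, for the 11360 genes at or above 1 TPM by the mean of 3 replicates. Red lines mark the 7 enzymes above 1 TPM. GYG1 lies left of the peak, and PYGL and PYGB stand in the upper tail at percentiles 95.8 and 97.9.

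The other genes of glycogen metabolism were read from a list of 47 genes in 9 roles that includes the 9 enzymes. Of these 47, 36 were at or above 1 TPM by the mean and 11 below, and of the 38 genes other than the 9 enzymes it was 29. The 6 genes with 0 reads in every replicate were GYG2, PGM5, PPP1R3A, NHLRC1, G6PC1 and G6PC2. The counts are to be read against the 56.7% of all protein-coding genes at that level.

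In lysosomes glycogen is degraded by acid alpha-glucosidase, and its gene GAA was at 14.6, 14.7 and 13.8 TPM. STBD1, a glycogen-binding protein, had 1, 0 and 1 reads, and 88.5% of its exonic bases are shared with the readthrough gene FAM47E-STBD1, itself listed at 0, so its expression was not read either.

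Phosphorylase kinase, which switches phosphorylase on, has several kinds of subunit, and all 8 genes listed for it were at or above 1 TPM by the mean. The regulatory beta subunit PHKB was at 39.6, 39.6 and 34.6 TPM. The muscle alpha subunit PHKA1 was at 14.4, 12.8 and 11.9 TPM and the liver alpha subunit PHKA2 at 14.03, 17.57 and 12.998 TPM. PHKA2 was above PHKA1 in 2 of 3 replicates, with a log2 ratio of 0.18 ± 0.25 (SD, n = 3), so the alpha isoforms were not set apart. The catalytic gamma subunit was mainly PHKG2, the form of liver and testis, at 8.08, 11.4 and 8.05 TPM, against 0.857, 1.58 and 0.705 TPM for the muscle form PHKG1. PHKG2 exceeded PHKG1 9.44-fold, 7.18-fold and 11.4-fold, a log2 ratio of 3.20 ± 0.34 (SD, n = 3), with PHKG1 resting on 10, 19 and 7 reads. On the log2(TPM + 1) scale the difference was 2.32. PHKG1 was at or above 1 TPM in 1 of 3 replicates, so its mean of 1.05 TPM passed through replicate 2, without which it was below 1 TPM, and with canonical lengths it was 0.914 TPM. Reads of PHKG2, PHKA2 and PHKG1 may include those of opposite-strand genes, since 29.1%, 19.0% and 18.1% of their canonical exons overlap one.

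Of the 14 genes that control synthase or remove phosphate from glycogen, 10 were at or above 1 TPM. The synthase kinases GSK3A and GSK3B had means of 25.9 and 55.5 TPM, and the catalytic subunits of protein phosphatase 1, PPP1CA, PPP1CB and PPP1CC, had means of 141, 109 and 205 TPM. The subunits that bring this phosphatase to glycogen were far lower. PPP1R3D, the highest of them, was at 8.02, 8.31 and 6.67 TPM, PPP1R3E, PPP1R3F and the liver-type PPP1R3B had means between 3.49 and 3.996 TPM, PPP1R3C had 0.363 TPM, PPP1R3G 4 reads in all and the muscle-type PPP1R3A none. EPM2A, the glycogen phosphatase laforin, was at 3.64, 3.73 and 3.12 TPM, and its partner NHLRC1, the ubiquitin ligase malin, had 0 reads. With canonical lengths PPP1CA had a mean of 229 TPM and EPM2A one of 6.34 TPM.

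For the release of free glucose the list held 4 genes. G6PC3, the glucose-6-phosphatase found in most tissues, was at 55.6, 57.2 and 40.9 TPM, and SLC37A4, the transporter that carries glucose 6-phosphate into the endoplasmic reticulum, at 13.1, 15.53 and 11.6 TPM. With canonical lengths their means were 81.7 TPM for G6PC3 and 30.6 TPM for SLC37A4. G6PC1 of liver and kidney and G6PC2 of pancreatic islets had 0 reads, where 3 reads would have given at most 0.161 and 0.221 TPM.

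**Figure D4:**
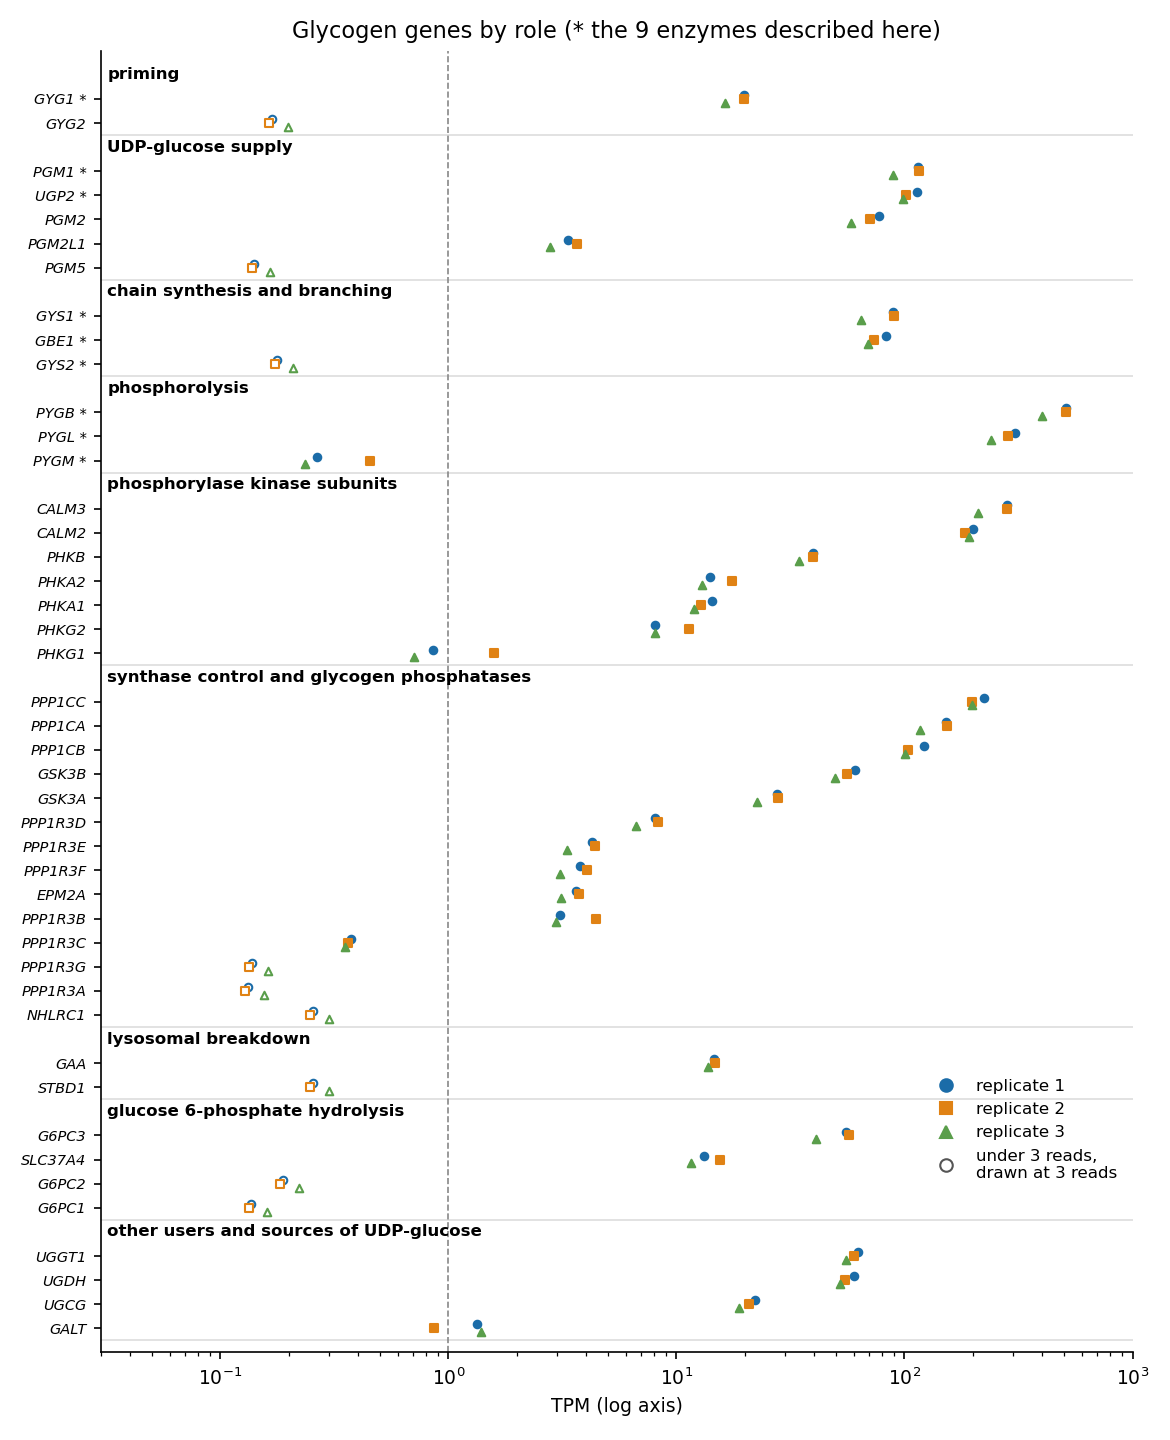
Levels of genes of glycogen metabolism in TPM on a log axis, for the listed genes that are reported here, grouped by role and sorted by mean, with the 9 enzymes marked by an asterisk. Symbols are the 3 replicates and open symbols are libraries with under 3 reads, drawn at the level of 3 reads. The dashed line is at 1 TPM, and the PPP1R3 subunits lie well below the PPP1C subunits.

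Markers of the tissues after which the isoforms are named were read in the same libraries. None of 5 liver markers was at or above 1 TPM, ALB and TTR had 0 reads, and their summed level was between 0.0233 and 0.328 TPM, beside 239 to 304 TPM of the liver phosphorylase PYGL. Of 5 brain markers 1 was at or above 1 TPM, MBP at 9.64 TPM (28.2 with canonical lengths), and GFAP, RBFOX3 and SLC1A2 had 0 reads, with a summed level from 9.02 to 10.6 TPM beside 402 to 511 TPM of the brain phosphorylase PYGB. Of 5 skeletal muscle markers 1 was at or above 1 TPM, TNNT1 at 56.3 TPM, and CKM, MYH7 and MYOG had 0 reads. Their summed level was from 45.4 to 67.5 TPM, nearly all from TNNT1, in libraries where PYGM had 14 reads in all. Of the luminal markers 2 of 4 were at or above 1 TPM, GATA3 at 12.8 and FOXA1 at 1.11 TPM, while ESR1 and PGR had at most 3 reads in a library. Fibroblast, leukocyte and endothelial markers were at or above 1 TPM in 1 of 3, 0 of 2 and 1 of 2 genes, with COL1A1 at 4.96 and PECAM1 at 1.77 TPM. Whether cells of other types had a part in the enzyme levels was not tested.

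The replicates were compared gene by gene, by a chi-square test of the reads against equal TPM with Benjamini-Hochberg adjustment over 15802 genes with at least 15 reads. The reads of 7 of the 7 enzymes tested differed between replicates, in a background where 54.3% of all genes tested and 76.0% of those at or above 10 TPM did. The test covers counting error only, and with this background the count says nothing particular of these enzymes. All 7 were lowest in replicate 3, as were 84.3% of protein-coding genes at or above 10 TPM. Without replicate 3 the count fell to 3, namely GBE1, PYGL and UGP2, beside 21.3% of all genes tested. After median-of-ratios scaling of the libraries it was 5, beside 31.3% of all genes and 42.9% of those at or above 10 TPM, and GYG1 and PGM1 no longer differed. Between replicates 3 and 1 the log2 ratio ran from -0.20 for UGP2 to -0.47 for GYS1, against the median shift of -0.25. The coefficient of variation of the 7 enzymes had a median of 12.1%, beside 11.1% for protein-coding genes at or above 10 TPM.

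**Figure D5:**
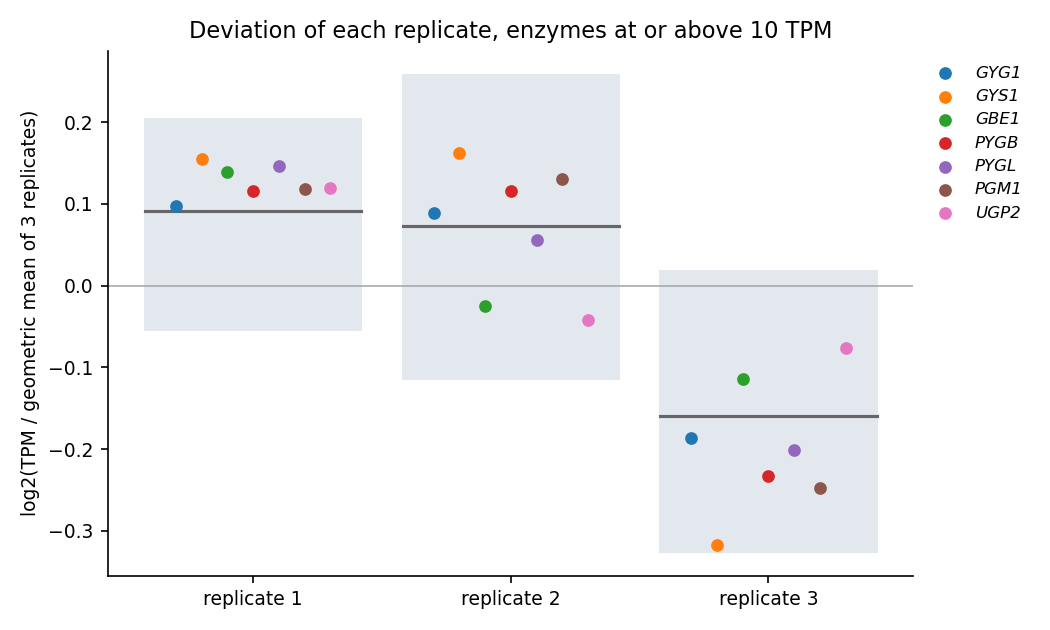
Log2 of TPM over the geometric mean of the 3 replicates, for the 7 enzymes at or above 10 TPM. Shaded boxes span percentiles 5 to 95 of the 8364 protein-coding genes at or above 10 TPM and dark lines their median. All enzymes lie inside the boxes, and all are below 0 in replicate 3, with GYS1 lowest at -0.32.

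The genes whose values over the 3 replicates were most like those of the leading isoforms were found by Euclidean distance of log2(TPM + 1) over 20045 other protein-coding genes. For PYGB they were RPS9, a ribosomal protein gene, at a distance of 0.0437, APLP2 at 0.0481 and HSPA5, a chaperone of the endoplasmic reticulum, at 0.0691, and 9 genes lay within 0.1. For GYS1 they were NOL6 at 0.0537, POLR1G, a subunit of RNA polymerase I, at 0.0591 and MLST8, a subunit of the mTOR complexes, at 0.0706, and 21 genes lay within 0.1. With 3 replicates of 1 condition the distance mostly measures how near the levels are.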

How the data were processed

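Libraries depleted of ribosomal RNA were made from 300 ng of total RNA of 3 replicates of MCF10A cells carrying an empty vector. The submitters' processing notes name fastp, STAR, MultiQC and hg38 (GRCh38.p14), and the methods name Seq2science; their versions, the annotation and whether counting used strand are not given in the sources used here. The authors deposited 1 table of TPM, not pooled, with each replicate summing to 1000000, and 0 columns of values were left unused.

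TPM were used as deposited. Positions, gene types and lengths came from GENCODE release 44 (62700 of 62754 genes matched by identifier). TPM times the length of the longest transcript, in steps of the smallest value, gave whole numbers for 100% of annotated genes, with a largest deviation of 4.80e-09, which were taken as reads. A library with under 3 reads was set to 3 reads in isoform ratios. Expression was called at 1 TPM by the mean. Percentiles are the share of protein-coding genes at or above 1 TPM with a lower mean. Reads were compared between replicates by a chi-square test over all genes with at least 15 reads, with Benjamini-Hochberg adjustment, and counting intervals are exact Poisson (one gene) or exact binomial (ratios) at 95%. Exon sharing was computed over the canonical transcript. Coding sequences were aligned pairwise and searched for shared stretches of 50 bases.

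The members, the 47 genes in 9 roles and the 8 marker lists were chosen with earlier results of these data known. Named genes were all 9 enzymes, the other listed genes by role, the marker lists, and the 3 protein-coding genes nearest to the highest member of each of the synthase and phosphorylase families. Some listed genes, counted in the totals, are not reported here. Alternatives covered the cutoff (0.5 and 2 TPM, or every replicate), pseudocounts of 1 and 0.1, and rescaling to protein-coding genes outside the mitochondrial genome. They also covered canonical transcript lengths, the filters on low values, library scaling and leaving out each replicate. Scripts were tested on simulated data. Python 3.11.15 was used with numpy 2.4.6, pandas 2.3.3, scipy 1.17.1, matplotlib 3.10.9 and Biopython 1.88.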

Additional observations from a re-analysis of the deposited data

How the results depend on the processing

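Of 121 alternative values, 92 were within 1 SD of the replicates, or, for counts, within 1.5 times of the reported value. The other 29 were not, and no isoform ratio changed sign. Part of the 92 had no other possible outcome. With 3 replicates, the mean of any 2 lies within 1 SD of the mean of all 3, for TPM and log2 ratios alike. Rescaling a library leaves the ratio of 2 genes in it unchanged. Agreement in these cases says nothing of how stable the levels and ratios are. The order of PGM1 and UGP2, which is not among the 121 values, turned with canonical lengths and without replicate 2. The count of enzymes at or above 1 TPM was 7 in all of its alternatives, and that of the 47 listed genes ranged from 34 to 36. A pseudocount of 1 moved the log2 ratio of PYGM to PYGB from -10.59 to -8.49, that of PYGM to PYGL from -9.81 to -7.71 and that of GYS2 to GYS1, with under 3 reads set to 3 reads, from -8.75 to -6.32. It moved PHKG2 to PHKG1 from 3.20 to 2.32. A pseudocount of 0.1 gave -10.17 for PYGM to PYGB and -9.43 for GYS2 to GYS1, where it also took the place of the limit of 3 reads. The number of enzymes whose reads differed between replicates ranged from 3, without replicate 3, to 7 when 1 replicate was left out. Rescaling to protein-coding genes, those of the mitochondrial genome left out, raised the TPM of the 7 enzymes above 1 TPM by over 1 SD (PYGB to 584). Canonical lengths moved 6, of which UGP2 rose and 5 fell. At 1 TPM the depth gives between 11.9 and 32.4 reads for the 9 genes, so PYGM and GYS2 were read with low precision. Conditions could not be compared, paired or not, because there is a single group, and the only pairing was of genes within a library.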
